A study of Homo sapiens with 9 samples.

Results

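Genes of the actin cytoskeleton, many of them known targets of the transcription factor SRF and its MRTF coactivators, were followed in HCT116 cells after knockdown of the long noncoding RNA LINC00857. They are a list of gene names, chosen with earlier results of these data known, and all 38 were found among the 35817 genes of the count table. All 38 also passed the filter on low counts, which kept 21130 genes for testing. HCT116 is an established human colorectal carcinoma line. The cells had been transfected with LINC00857-siRNA1 (siRNA1), LINC00857-siRNA2 (siRNA2) or a negative control siRNA (NC) using Lipofectamine RNAiMax, and total RNA was sequenced from 3 libraries per group. No source used here gives the time from transfection to harvest or says that libraries came from separate cultures. The p-values therefore rest on the spread among 3 libraries per group, and that spread may be technical.

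Actin exists as free monomers and as filaments. Free monomers bind MRTF proteins and keep them out of the nucleus, and when filaments assemble the released MRTF joins SRF on CArG boxes, short A/T-rich elements between CC and GG, in the promoters of actin genes and of genes for actin-binding proteins. The same filaments give epithelial tumour cells their cortex, their stress fibres and their focal adhesions, the sites where integrins hold the cell to its matrix. Not every gene described here is an SRF target: the MRTF genes themselves and STMN1, which acts on microtubules, were included with the rest.

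CArG boxes were looked for in the RefSeq promoter windows of these genes (GRCh38.p14, from 250 bases before to 50 bases after each annotated start), of which 74 windows of 36 genes were given, with no entry used for TAGLN and MYL9. The box reads as a CArG box on either strand, so each window was searched once. It was present in 5 of the 74 windows (6.76%), against 454 of all 35116 windows (1.29%). The 60 bases around the box, read along the gene's strand with the CArG box in capitals, are shown for the 5 genes because their transcripts did not move together.
TPM4: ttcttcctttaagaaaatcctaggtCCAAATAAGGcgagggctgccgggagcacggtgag
CNN2: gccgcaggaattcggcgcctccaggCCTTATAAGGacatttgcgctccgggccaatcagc
ACTG1: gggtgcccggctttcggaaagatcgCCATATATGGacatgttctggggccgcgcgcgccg
FLNA: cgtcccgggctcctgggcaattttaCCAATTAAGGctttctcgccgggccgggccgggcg
ACTN1: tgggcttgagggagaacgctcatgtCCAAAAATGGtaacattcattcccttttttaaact
The TPM4 stretch lies at chr19:16067340-16067399 on the plus strand, and its box begins 173 bases before the annotated start. That of CNN2 lies at chr19:1026494-1026553 on the plus strand, with the box 89 bases before the start. The ACTG1 stretch, chr17:81512859-81512918, and the FLNA stretch, chrX:154374694-154374753, are on the minus strand, each with its box 94 bases before the start. For ACTN1 the stretch is chr14:68977703-68977762 on the minus strand, with the box 171 bases before the start. Of these 5 genes, TPM4 rose with both siRNAs, FLNA fell with both, CNN2 rose with siRNA1 and fell with siRNA2, ACTG1 rose with siRNA1 and ACTN1 fell with siRNA2. A match describes the letters only, and binding of SRF was not measured.

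Sequencing depth was alike in the 3 groups, with 54097508 to 57815092 counts per library for siRNA1, 51411860 to 57156058 for siRNA2 and 54242901 to 55790505 for NC. The targeted RNA was lower with both siRNAs. LINC00857 had 200.9, 229 and 207 normalized counts with siRNA1 and 179, 178 and 243 with siRNA2, against 518, 423 and 505 with NC, so that the knockdown libraries all lay under the lowest NC library. A normalized count is the count scaled by TMM (trimmed mean of M values) to the mean library size. The first siRNA1 library stood apart from the others of its group, with a chi-square per gene of 17.2 and 18.9 against siRNA1 libraries 2 and 3, which differed from each other by 10.9, while the pairs within siRNA2 and NC gave 10.2 to 12.1. Its genes with 1 to 2 kb of exon lay 0.0724 above the siRNA1 mean (median, log2 scale, 1399 genes), and its genes over 8 kb lay 0.0356 below (deviation of -0.0356, 2889 genes). MYL6, MYL12A, MYL12B, TPM2, TPM3, TAGLN2, TMSB10, CFL1, PFN1 and CAPG were among the genes highest within siRNA1 in that library, and values without it are given for those named. Markers of colorectal epithelium were expressed in part, keratins above all. The 11 of 12 listed markers found in the table summed to 3569 to 4067 CPM (counts scaled to library size) with siRNA1, 3896 to 4037 with siRNA2 and 3584 to 3776 with NC, with CDX1, CEACAM5 and LGALS4 at 0 in all NC libraries. Fibroblast and smooth muscle markers, a list carried by SMTN and COL1A1, summed to 203 to 216 CPM with siRNA1, 201 to 206 with siRNA2 and 185 to 196 with NC, and COL1A2, DCN and PDGFRA were at 0 in all NC libraries. These sums were above NC in all 6 knockdown libraries, and their part in the results was not tested. Endothelial and blood markers summed to at most 2.05 CPM in any library.

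Most of the 38 genes were abundant. RPKM is the count scaled by library size and by exon length, taken as all annotated exons of the gene in GENCODE v29 joined. Transcripts may use fewer exons, so ranks and shares between genes depend on that length. By RPKM ACTG1, encoding cytoplasmic gamma-actin, had a level of 1441 ± 3.91 in NC (SD, n = 3) and ranked 20 of 20743 genes. The monomer-binding thymosin gene TMSB10 followed at 1341 ± 49.6 (rank 22), the membrane linker EZR at 629 ± 3.21 (rank 34) and the profilin gene PFN1 at 360 ± 3.13 (rank 67). At the low end stood MRTFA at 5.24 ± 0.282, TPM1 at 1.94 ± 0.0494 and TAGLN, a smooth muscle transgelin, at 1.38 ± 0.143 (rank 12116). Neighbouring levels such as those of MRTFB (5.47 ± 0.276) and MRTFA did not differ beyond their spread. In bulk RNA, more cells expressing a gene and more RNA per cell cannot be told apart.

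With siRNA1, 21 of the 38 genes passed the test against NC (adjusted p under 0.05, edgeR's quasi-likelihood test), 7 higher and 14 lower. Over all genes tested 21.3% passed, 10.8% higher and 10.5% lower. With siRNA2, 23 of the 38 passed, 7 higher and 16 lower, beside 27.7% of all genes, 13.8% higher and 13.9% lower. Between siRNA1 and siRNA2 directly, 27 of the 38 differed, 11 higher and 16 lower with siRNA1, beside 29.4% of all genes, 15.1% higher and 14.3% lower. Abundant genes pass more often. Among the 8455 genes with a mean of at least 1000 normalized counts, a limit chosen after these genes were seen to be abundant, 41% passed with siRNA1, 49.7% with siRNA2 and 52.2% between the siRNAs, against 56.8%, 62.2% and 73% of the 37 genes of the list above that limit.

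The changes went in both directions and most were small. The median log2 fold change of the 38 genes was -0.11 with siRNA1 and -0.05 with siRNA2, beside 0.01 with siRNA1 and 0.0045 with siRNA2 for all genes, and the median size without sign was 0.204 with siRNA1 and 0.205 with siRNA2, beside 0.238 with siRNA1 and 0.280 with siRNA2 for all genes. The set of all genes includes many with fewer counts than these, and the median size over abundant genes alone was not taken. The sizes therefore do not compare these genes with others of like abundance. Requiring a log2 fold change of at least 0.3 in size as well left 12 genes with siRNA1 (2 higher and 10 lower; 12.2% of all genes) and 15 with siRNA2 (5 higher and 10 lower; 18.4% of all genes). The same rule left 15 genes between the siRNAs (20.2% of all genes). TPM4, TLN1 and MSN rose with both siRNAs. MYH10, MYL12A, CNN3, ACTN4, FLNA, CFL2, GSN and STMN1 fell with both. TAGLN2 and CNN2 rose with siRNA1 and fell with siRNA2, and ARPC2 fell with siRNA1 and rose with siRNA2. The test was passed with siRNA1 alone by 7 genes and with siRNA2 alone by 9, and in 13 of those 16 the siRNAs also differed directly. No call was made against NC for MYL6, MYL12B, TPM2, TAGLN, CALD1, ZYX, CFL1 and PFN1. Both comparisons share the same 3 NC libraries.

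**Figure D1:**
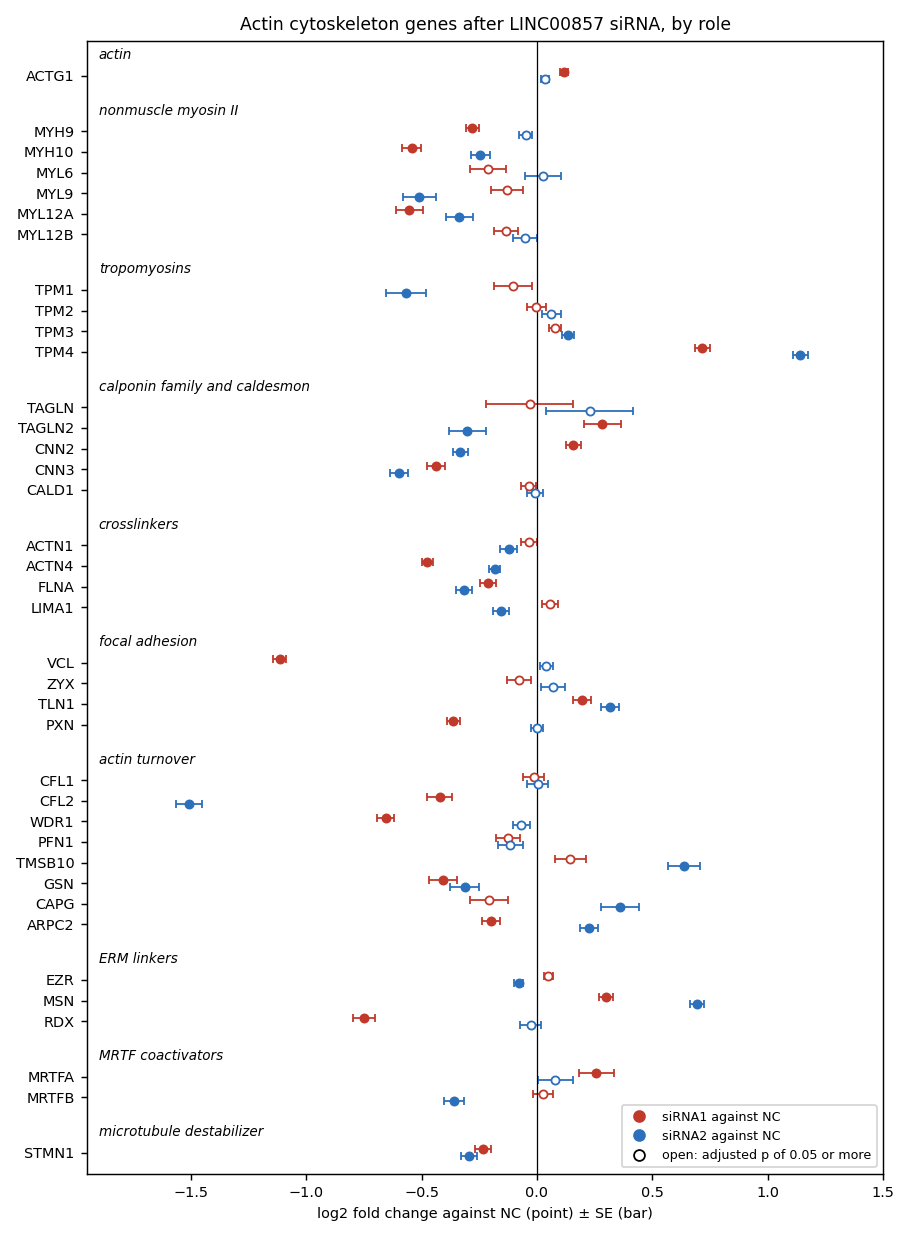
Log2 fold change against NC (horizontal axis) of the 38 genes, grouped by role, with siRNA1 in red above siRNA2 in blue in each row. Bars are the SE from edgeR, and open points did not pass adjusted p of 0.05. VCL is far left with siRNA1 only (-1.12, against 0.04 with siRNA2), CFL2 is farthest left with siRNA2 (-1.51), and TPM4 is farthest right with both (0.72 and 1.14).

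Actin itself moved little. ACTG1 rose with siRNA1, with 256572 to 260120 normalized counts against 237334 to 238623 with NC, 0.12 on the log2 fold change scale (SE 0.02, adjusted p = 0.000347, edgeR quasi-likelihood). With siRNA2 it had 242674 to 245812, a value of 0.03 (SE 0.02, adjusted p = 0.177), although none of those libraries overlapped NC. The change was smaller than most of the called changes described below. The name ACTG1 is shared by 20 annotated pseudogenes, and how reads common to them were counted was not given in the sources used here.

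Nonmuscle myosin II is the motor that pulls on actin filaments, and none of its 6 genes on the list was called higher. Of these 6 genes, 3 fell and 3 did not pass with siRNA1, and likewise 3 and 3 with siRNA2. MYH10, the heavy chain of nonmuscle myosin IIB, had 4544, 4840 and 4788 normalized counts with siRNA1 and 5711, 5798 and 5915 with siRNA2, against 6763, 6685 and 7198 with NC. The 3 groups were fully separate, siRNA1 lowest, with log2 fold changes of -0.54 for siRNA1 (SE 0.04, edgeR adjusted p = 1.40e-06) and -0.24 for siRNA2 (SE 0.04, adjusted p = 0.000601). MYH9, the heavy chain of myosin IIA and the more abundant of the pair, fell with siRNA1 by 0.28 on the log2 scale (SE 0.03, adjusted p = 2.42e-05), while its value with siRNA2 was -0.05 (SE 0.03, adjusted p = 0.265). MYH9 made up 89.9% of the summed RPKM of MYH9 and MYH10 with siRNA1, 89.4% with siRNA2 and 88.1% with NC.

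Of the regulatory light chains, which carry the phosphorylation that switches the motor on, MYL12A fell with both siRNAs, MYL9 fell with siRNA2 and MYL12B passed with neither. MYL12A had 8399, 7239 and 6896 normalized counts with siRNA1 and 8985, 8450 and 8761 with siRNA2, against 11266, 10808 and 10991 with NC. All 6 knockdown libraries lay below NC, with log2 fold changes of -0.55 for siRNA1 (SE 0.06, edgeR adjusted p = 2.51e-05) and -0.34 for siRNA2 (SE 0.06, adjusted p = 0.000835). Without the first siRNA1 library the siRNA1 value was -0.64 (adjusted p = 2.68e-07). MYL9, the light chain of smooth muscle and stress fibres and an SRF target, had 2028, 2182 and 1974 with siRNA1 and 1683, 1590 and 1481 with siRNA2, against 2155, 2381 and 2233 with NC. Only the siRNA2 libraries of MYL9 were separate from NC, with a log2 fold change of -0.51 against NC (SE 0.07, adjusted p = 0.000126), and the siRNAs differed directly by 0.38 (siRNA1 over siRNA2, SE 0.07, adjusted p = 0.00116). MYL12B and the essential light chain MYL6 did not pass against NC with either siRNA, at -0.13 and -0.21 with siRNA1 and -0.05 and 0.03 with siRNA2. Within siRNA1 both were highest in the first library, and without it MYL6 was called at -0.34 (adjusted p = 4.15e-05) and MYL12B at -0.21 (adjusted p = 0.00216). MYL12A and MYL12B are near-identical neighbours, so the split of reads between them is uncertain.

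Tropomyosins, rods that lie along the filament and decide which myosins and severing proteins can reach it, gave the largest rise among the 38 genes. TPM4 had 21363, 21012 and 21770 normalized counts with siRNA1 and 29516, 27943 and 28603 with siRNA2, against 12715, 13039 and 13254 with NC. The groups did not overlap, siRNA2 stood highest, and the log2 fold changes were 0.72 with siRNA1 (SE 0.03, edgeR adjusted p = 1.14e-08) and 1.14 with siRNA2 (SE 0.03, adjusted p = 1.17e-10), with a direct difference of -0.42 (siRNA1 over siRNA2, SE 0.03, adjusted p = 4.28e-07). TPM1 went the other way with siRNA2. It had 1188, 1371 and 1299 with siRNA1 and 915, 876 and 1005 with siRNA2, against 1410, 1392 and 1342 with NC, with log2 fold changes of -0.10 for siRNA1 (SE 0.08, adjusted p = 0.468) and -0.57 for siRNA2 (SE 0.08, adjusted p = 0.000225). The siRNA2 libraries were below all others and the siRNA1 and NC libraries overlapped. TPM3 rose slightly with siRNA2 (0.13, SE 0.03, adjusted p = 0.00188). With siRNA1 the TPM3 libraries were also all above NC, at 0.08 (SE 0.03, adjusted p = 0.0507), a value that passed in DESeq2 (adjusted p = 0.0137), in limma-voom (0.0130), with upper quartile scaling (0.0133) and with a replicate block (0.0361), and the direct difference did not pass (-0.06, adjusted p = 0.149). TPM2 stayed between 13227 and 14658 normalized counts in all 9 libraries with no call. Without the first siRNA1 library the siRNAs differed directly in TPM2, at -0.11 (siRNA1 over siRNA2, adjusted p = 0.0143), and in TPM3, at -0.07 (adjusted p = 0.0467).

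The make-up of the tropomyosin pool moved with TPM4. TPM4 formed 24.5% ± 0.810 of the summed tropomyosin RPKM with siRNA1 and 29.5% ± 0.715 with siRNA2, against 16.8% ± 0.256 with NC (SD, n = 3 each). TPM2 formed 41.7% ± 1.24 with siRNA1 and 39.2% ± 0.798 with siRNA2, against 47.1% ± 0.197 with NC, the largest share in every group by this scaling. That place rests on the exon length, 3248 bases for TPM2 and 8389 for TPM3. In counts TPM3 was above TPM2 in every library. The summed level itself was 183 ± 5.60 RPKM with siRNA1 and 204 ± 1.89 with siRNA2, against 163 ± 1.08 with NC. Shares of 1 pool depend on each other, so the lower TPM2 share stands beside a TPM2 count that did not pass the test.

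**Figure D2:**
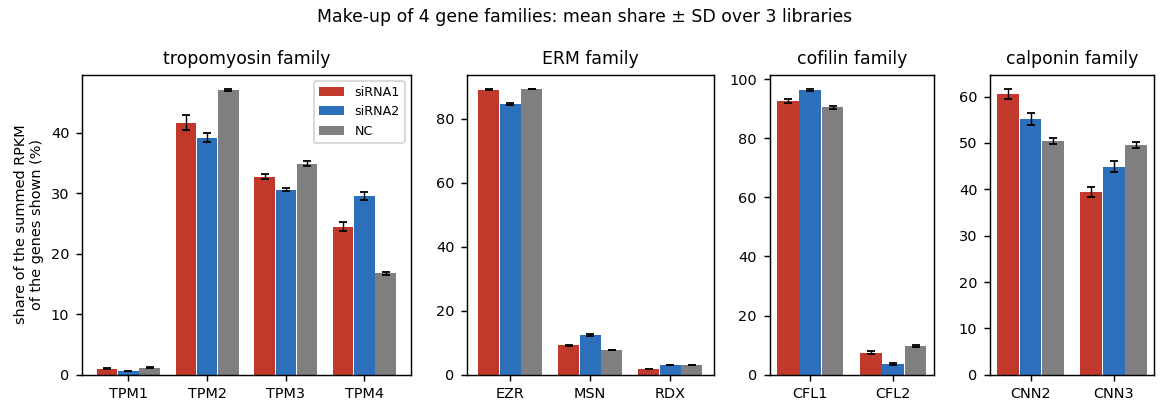
Share of the summed RPKM of the genes shown (vertical axis, percent) in the tropomyosin, ERM (ezrin, radixin, moesin), cofilin and calponin families. Bars are the mean of 3 libraries and error bars the SD. TPM4 and MSN have larger shares with both siRNAs than with NC, CFL2 has its smallest share with siRNA2 (3.59%), and RDX has its smallest with siRNA1 (1.77%).

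Among the calponin family and caldesmon, actin binders of contractile and migrating cells, CNN2 and TAGLN2 went opposite ways with the siRNAs. With siRNA1 2 of 5 genes rose, 1 fell and 2 did not pass, and with siRNA2 none rose, 3 fell and 2 did not pass. CNN2 had 14584, 15036 and 14715 normalized counts with siRNA1 and 10210, 10493 and 10863 with siRNA2, against 13218, 13417 and 13132 with NC. The siRNA1 libraries were above NC and the siRNA2 libraries below it, with log2 fold changes of 0.16 for siRNA1 (SE 0.03, edgeR adjusted p = 0.004) and -0.33 for siRNA2 (SE 0.03, adjusted p = 7.02e-06) and a direct difference of 0.49 (SE 0.03, adjusted p = 1.58e-07). CNN3, the calponin found in many nonmuscle cells, had 7676, 7249 and 7498 with siRNA1 and 6868, 6413 and 6754 with siRNA2, against 10397, 10038 and 9914 with NC. All 6 knockdown libraries of CNN3 lay below NC, at -0.44 with siRNA1 (SE 0.04, adjusted p = 5.00e-06) and -0.60 with siRNA2 (SE 0.04, adjusted p = 1.83e-07). CNN2 thus formed 60.6% ± 1.06 of the summed RPKM of CNN2 and CNN3 with siRNA1 and 55.1% ± 1.27 with siRNA2, against 50.5% ± 0.667 with NC. As many as 11 annotated pseudogenes carry the name of CNN2.

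Transgelin 2, the transgelin found outside muscle, also went both ways, less firmly. TAGLN2 had 5870, 4574 and 4662 normalized counts with siRNA1 and 3482, 3414 and 3179 with siRNA2, against 4161, 4282 and 3981 with NC. The groups did not overlap, and the log2 fold changes were 0.28 with siRNA1 (SE 0.08, edgeR adjusted p = 0.0234) and -0.30 with siRNA2 (SE 0.08, adjusted p = 0.013). Without the first siRNA1 library the siRNA1 value was 0.16 (adjusted p = 0.0495). The siRNA1 call was lost when any NC library was left out (adjusted p from 0.0525 to 0.104) and with no filter on low counts (0.0675). The siRNA2 call was lost without siRNA2 library 3 (adjusted p = 0.0610) or NC library 2 (0.0515). The direct difference of 0.58 (SE 0.08, adjusted p = 0.000103) was kept in each case. TAGLN, the smooth muscle transgelin and a widely used SRF target, had only 254 to 424 normalized counts in any library, with log2 values of -0.03 for siRNA1 and 0.23 for siRNA2 (SE 0.19 each). Caldesmon (CALD1), which holds tropomyosin-bound filaments in check, lay between 7449 and 7793 in all 9 libraries.

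Crosslinkers, which tie filaments into bundles and networks, fell or did not pass. With siRNA2 all 4 were lower, and with siRNA1 2 of 4 were. ACTN4, the alpha-actinin of motile epithelial cells, had 43343, 43160 and 42756 normalized counts with siRNA1 and 52244, 53373 and 52783 with siRNA2, against 60568, 59997 and 59200 with NC. The groups were separate in that order, at -0.48 with siRNA1 (SE 0.02, edgeR adjusted p = 3.02e-08) and -0.18 with siRNA2 (SE 0.02, adjusted p = 7.23e-05). FLNA, filamin A, which joins filaments at wide angles and anchors them to the membrane, had 71491, 77495 and 78828 with siRNA1 and 69223, 72351 and 70519 with siRNA2, against 86821, 89753 and 87560 with NC. Every knockdown library lay below NC while the siRNA groups overlapped each other, with log2 fold changes of -0.21 for siRNA1 (SE 0.03, adjusted p = 0.000657) and -0.32 for siRNA2 (SE 0.03, adjusted p = 1.68e-05). LIMA1, whose product EPLIN stabilizes bundles, fell with siRNA2 by 0.16 on the log2 scale (adjusted p = 0.00401), and ACTN1 fell with siRNA2 by 0.12 (adjusted p = 0.0182), a call lost without siRNA2 library 1 or 3 or NC library 1 or 2 (adjusted p from 0.0587 to 0.0831).

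Focal adhesion genes gave the largest gap between the siRNAs among the 38 genes. VCL encodes vinculin, which reinforces the link from talin to actin and is a classic SRF target. It had 9648, 9616 and 9557 normalized counts with siRNA1 and 21550, 21431 and 21256 with siRNA2, against 20556, 20871 and 21045 with NC. The siRNA1 libraries were far below the rest, at a log2 fold change of -1.12 (SE 0.03, edgeR adjusted p = 1.27e-10). The siRNA2 libraries were all slightly above NC but did not pass, at 0.04 (SE 0.03, adjusted p = 0.336), and the direct difference was -1.16 (siRNA1 over siRNA2, SE 0.03, adjusted p = 1.81e-11). Of the VCL exon length 11.1% overlaps AP3M1 on the other strand, and the strand of the reads was not given in the sources used here.

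Paxillin, the scaffold of young adhesions, was also lower with siRNA1 alone. PXN had 23282, 23671 and 23199 normalized counts with siRNA1 and 29584, 29877 and 30702 with siRNA2, against 30132, 30008 and 30013 with NC. Only the siRNA1 libraries stood apart, at -0.36 (SE 0.03, edgeR adjusted p = 1.11e-06), beside 0.00 with siRNA2 (SE 0.03, adjusted p = 0.998). Talin 1 moved the other way. TLN1, which binds integrin tails and pulls them into their active form, had 17614, 19207 and 19485 with siRNA1 and 19780, 20828 and 20586 with siRNA2, against 16073, 16647 and 16409 with NC. Both siRNA groups lay above NC, at 0.20 with siRNA1 (SE 0.04, adjusted p = 0.00323) and 0.32 with siRNA2 (SE 0.04, adjusted p = 5.37e-05). ZYX, zyxin, which moves to strained stress fibres, had no call against NC, with 6992 to 8162 normalized counts with siRNA1, 7998 to 8548 with siRNA2 and 7845 to 8106 with NC. Its siRNA1 value of -0.08 (adjusted p = 0.343) became a call at -0.15 (adjusted p = 0.0366) without siRNA1 library 3.

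Filament turnover held the largest change of the 38 genes with siRNA2. Cofilins sever old filaments, and CFL2, the muscle-type cofilin, had 3721, 3773 and 3699 normalized counts with siRNA1 and 1680, 1668 and 1919 with siRNA2, against 5066, 4816 and 5117 with NC. The groups were separate, siRNA2 lowest, at -0.42 with siRNA1 (SE 0.05, edgeR adjusted p = 0.000109) and -1.51 with siRNA2 (SE 0.06, adjusted p = 1.36e-09), and the siRNAs differed directly by 1.09 (SE 0.06, adjusted p = 1.44e-08). CFL1, the main cofilin, had no call, so CFL2 was 7.45% ± 0.553 of their summed RPKM with siRNA1 and 3.59% ± 0.285 with siRNA2, against 9.62% ± 0.358 with NC. WDR1, whose product Aip1 works with cofilin in disassembly, passed against NC with siRNA1 alone. It had 14139, 13275 and 13087 with siRNA1 and 20766, 20177 and 19992 with siRNA2, against 21681, 21444 and 20712 with NC, at -0.66 with siRNA1 (SE 0.04, adjusted p = 7.41e-08) and -0.07 with siRNA2 (SE 0.04, adjusted p = 0.202). The siRNA1 libraries of WDR1 were below all others, and the siRNA2 and NC libraries overlapped.

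Gelsolin and its relative CapG divided. GSN severs and caps filaments in response to calcium, and it had 4217, 3969 and 3727 normalized counts with siRNA1 and 3967, 4127 and 4617 with siRNA2, against 5552, 5139 and 5110 with NC. Both siRNA groups were below NC and overlapped each other, at -0.41 with siRNA1 (SE 0.06, edgeR adjusted p = 0.000404) and -0.31 with siRNA2 (SE 0.06, adjusted p = 0.0019). CAPG, which caps without severing, had 3928, 2982 and 3186 with siRNA1 and 5302, 4781 and 4877 with siRNA2, against 3792, 3884 and 3981 with NC. The siRNA2 libraries of CAPG were highest, at 0.36 (SE 0.08, adjusted p = 0.00484), and the siRNA1 value of -0.21 (SE 0.08, adjusted p = 0.0982) became a call at -0.34 (adjusted p = 0.000799) without the first siRNA1 library.

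Monomer handling and branching also moved, mostly with siRNA2. TMSB10, a thymosin that holds actin monomers back from assembly, had 46899, 37380 and 37574 normalized counts with siRNA1 and 57473, 56325 and 57597 with siRNA2, against 37104, 37848 and 35212 with NC. The siRNA2 libraries were above all others, at 0.64 (SE 0.07, edgeR adjusted p = 1.40e-05), and the siRNA1 value of 0.15 (SE 0.07, adjusted p = 0.166) was 0.03 without the first siRNA1 library. PFN1, profilin, which loads monomers for growth, was at -0.13 with siRNA1 and -0.12 with siRNA2 with no call (adjusted p = 0.129 and 0.140). Without the first siRNA1 library PFN1 was called with both, at -0.22 with siRNA1 (adjusted p = 2.44e-05) and -0.12 with siRNA2 (adjusted p = 0.000565), and CFL1 with siRNA1 at -0.09 (adjusted p = 0.0284). The siRNA2 value of PFN1 also passed with only siRNA2 and NC in the fit (adjusted p = 0.000904) and in DESeq2 (0.0456), where the siRNA1 value passed as well (0.0305). ARPC2, a core subunit of the Arp2/3 complex that starts branches, had 9458, 8794 and 8993 with siRNA1 and 12554, 12144 and 11932 with siRNA2, against 10117, 10734 and 10456 with NC. The siRNA1 libraries of ARPC2 were below NC and the siRNA2 libraries above it, at -0.20 with siRNA1 (SE 0.04, adjusted p = 0.00225) and 0.23 with siRNA2 (SE 0.04, adjusted p = 0.000615), and the direct difference was -0.43 (SE 0.04, adjusted p = 2.50e-06).

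**Figure D3:**
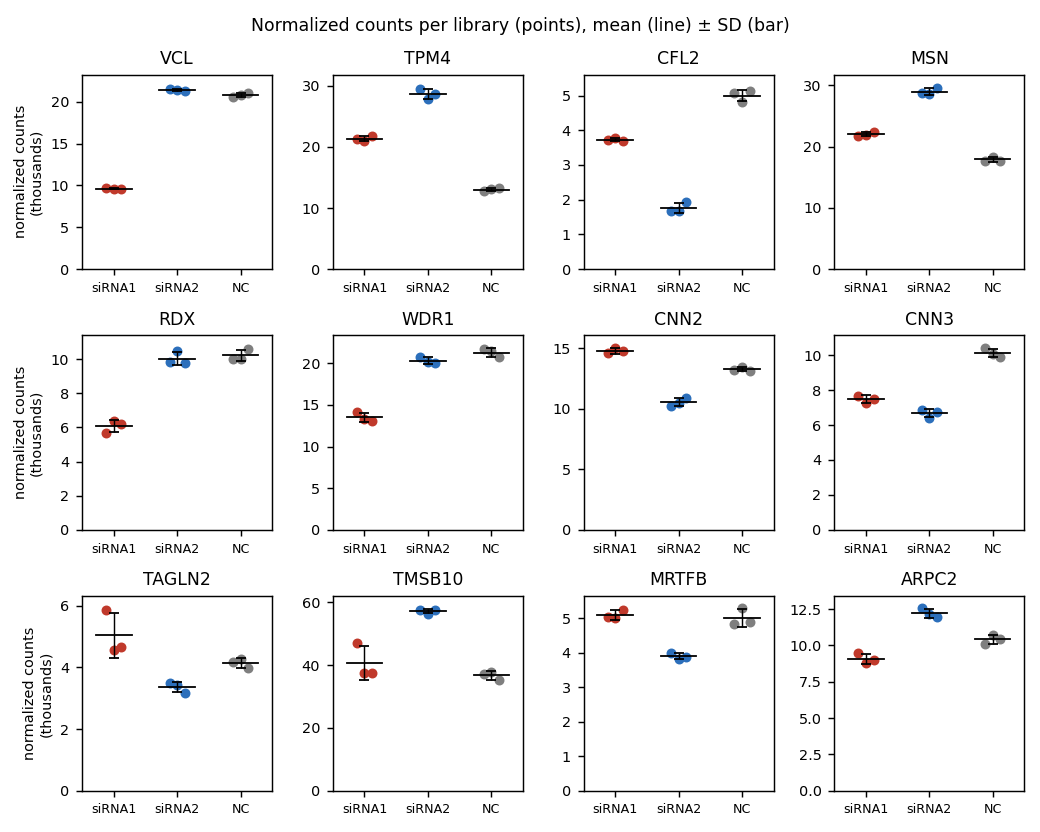
Normalized counts in units of 1000 (vertical axes, starting at 0) of 12 of the genes in each library, with siRNA1 in red, siRNA2 in blue and NC in grey, lines for the mean of 3 libraries and bars for the SD. The siRNA1 points of VCL, RDX and WDR1 lie below those of both other groups, the siRNA2 points of CFL2, MRTFB, CNN2 and TAGLN2 lie below both, and those of TPM4 and MSN are highest with siRNA2 and lowest with NC.

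The ERM proteins tether membrane proteins to the cortex, and their 3 genes gave 3 patterns. MSN, moesin, had 21766, 21972 and 22412 normalized counts with siRNA1 and 28753, 28511 and 29647 with siRNA2, against 17703, 18376 and 17650 with NC. As with TPM4, the groups were separate and siRNA2 was highest, at 0.30 with siRNA1 (SE 0.03, edgeR adjusted p = 1.47e-05) and 0.69 with siRNA2 (SE 0.03, adjusted p = 5.62e-09). RDX, radixin, had 5670, 6352 and 6193 with siRNA1 and 9822, 10473 and 9780 with siRNA2, against 10033, 10010 and 10603 with NC. Only siRNA1 lowered RDX, at -0.75 (SE 0.05, adjusted p = 2.49e-07), beside -0.03 with siRNA2 (SE 0.05, adjusted p = 0.745), with a direct difference of -0.72 (SE 0.05, adjusted p = 1.26e-07). EZR, ezrin, the ERM protein of epithelial microvilli, fell by 0.08 on the log2 scale with siRNA2 (SE 0.02, adjusted p = 0.0114), a call lost without siRNA2 library 3 (adjusted p = 0.0643) or NC library 2 (0.0506). With siRNA1 the EZR libraries were all above NC, at 0.05 (SE 0.02, adjusted p = 0.118). That value passed in limma-voom (adjusted p = 0.00851) and with upper quartile scaling (0.0273). The direct difference of 0.13 (siRNA1 over siRNA2, SE 0.02, adjusted p = 0.000359) was kept whichever library was left out. EZR still formed 89.1% of the summed ERM RPKM with siRNA1 and 84.5% with siRNA2, against 89.2% with NC, while MSN formed 9.16% ± 0.146 with siRNA1 and 12.5% ± 0.366 with siRNA2, against 7.71% ± 0.131 with NC.

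The coactivators that read the actin monomer pool changed in 1 case each. MRTFB had 5033, 5008 and 5251 normalized counts with siRNA1 and 4007, 3828 and 3883 with siRNA2, against 4828, 5298 and 4903 with NC. The siRNA2 libraries were below all others, at -0.36 (SE 0.04, edgeR adjusted p = 4.77e-05), and the siRNA1 value was 0.02 (SE 0.04, adjusted p = 0.778). MRTFA rose with siRNA1, with 2013 to 2442 normalized counts against 1777 to 1970 with NC, at 0.26 (SE 0.08, adjusted p = 0.0278). That call was lost when siRNA1 library 2 or 3 or NC library 1 or 2 was left out (adjusted p from 0.0701 to 0.150), with no filter on low counts (0.0564) and with only siRNA1 and NC in the fit (0.0553). SRF, their DNA-binding partner, had 3920 to 4281 with siRNA1 and 3660 to 3819 with siRNA2, against 3567 to 3829 with NC, at 0.14 with siRNA1 (SE 0.05, adjusted p = 0.0459) and 0.02 with siRNA2 (SE 0.05, adjusted p = 0.831). The siRNA1 call for SRF was lost in each of the 9 fits that leave out a library (adjusted p from 0.0547 to 0.224). Levels of these RNAs say nothing of where the proteins were in the cell.

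STMN1, stathmin, acts outside the actin system by holding tubulin dimers away from microtubules. It had 12285 to 13311 normalized counts with siRNA1 and 12292 to 12502 with siRNA2, against 15166 to 15340 with NC. Every knockdown library lay below NC, and the groups of the siRNAs overlapped each other. The log2 fold changes were -0.23 for siRNA1 (SE 0.04, edgeR adjusted p = 0.000402) and -0.29 for siRNA2 (SE 0.04, adjusted p = 3.80e-05), with a direct difference of 0.06 (SE 0.04, adjusted p = 0.239).

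Other known MRTF-SRF targets, a list of 29 further genes of which 26 were tested, likewise went both ways. With siRNA1 6 rose and 8 fell (53.8% called, median log2 fold change -0.09), and with siRNA2 5 rose and 10 fell (57.7% called, median -0.11). Here and for the lists that follow, the share called over all genes tested was 21.3% with siRNA1 and 27.7% with siRNA2, and over the abundant genes described above 41% with siRNA1 and 49.7% with siRNA2. CCN1, a matrix protein and common SRF and YAP target, had 4897, 4893 and 4841 normalized counts with siRNA1 and 946, 1008 and 1078 with siRNA2, against 1084, 1077 and 1168 with NC. It rose with siRNA1 at 2.14 (SE 0.06, edgeR adjusted p = 6.82e-10) and had no call with siRNA2 (-0.13, adjusted p = 0.143), so in this gene the siRNA1 direction is opposite to that of VCL. ACTB, cytoplasmic beta-actin, rose with both, at 0.46 with siRNA1 (adjusted p = 1.14e-08) and 0.13 with siRNA2 (adjusted p = 0.000422). PDLIM7, a LIM protein of stress fibres, fell with both, at -0.58 with siRNA1 (adjusted p = 1.37e-06) and -0.46 with siRNA2 (adjusted p = 5.93e-06), as did the fibronectin receptor gene ITGA5, at -0.27 with siRNA1 (adjusted p = 0.000502) and -0.24 with siRNA2 (adjusted p = 0.000754). PALLD, encoding the stress fibre protein palladin, fell with siRNA1, at -0.18 (adjusted p = 0.000749), and rose with siRNA2, at 0.51 (adjusted p = 8.33e-08). PDLIM5 fell with both, at -0.16 with siRNA1 (adjusted p = 0.00799) and -0.57 with siRNA2 (adjusted p = 2.36e-07). The filamin gene FLNC fell with siRNA2, at -0.46 (adjusted p = 2.75e-07), beside 0.08 with siRNA1 (adjusted p = 0.0942). In this list 12 of 62 promoter windows (19.35%) held a CArG box.

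Immediate early genes, which SRF controls with TCF partners downstream of ERK rather than with MRTF, rose more often than they fell. Of 10 genes, 7 rose and 1 fell with siRNA1 (80% called, median 0.36), and 5 rose and none fell with siRNA2 (50% called, median 0.93). EGR1 had 3667, 3686 and 3934 normalized counts with siRNA1 and 7616, 7423 and 8041 with siRNA2, against 2423, 2327 and 2227 with NC. Its groups were separate, siRNA2 highest, at 0.69 with siRNA1 (SE 0.05, edgeR adjusted p = 5.99e-07) and 1.73 with siRNA2 (SE 0.05, adjusted p = 1.17e-10). IER2 rose by 0.33 with siRNA1 and 0.64 with siRNA2, FOSB by 1.16 with siRNA1 and 1.06 with siRNA2, and FOS by 0.78 with siRNA1 and 0.99 with siRNA2, while MCL1 was the gene that fell with siRNA1, at -0.23, beside 0.07 with siRNA2 (adjusted p = 0.134). EGR3, with at most 333 normalized counts in a library, rose with both, by 1.15 with siRNA1 (adjusted p = 0.0215) and 2.12 with siRNA2 (adjusted p = 0.000266). The siRNA1 call for EGR3 was lost without siRNA1 library 2 or NC library 3 (adjusted p up to 0.0987).

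Genes of the Arp2/3 complex, which starts branches on filaments, and of its activators gave 2 higher and 3 lower of 16 with siRNA1 (31.2% called, median -0.05) and 4 higher and 2 lower with siRNA2 (37.5% called, median 0.03). Each share was above that of all genes and below that of the abundant genes. BRK1, a subunit of the WAVE complex, fell with siRNA1 at -0.56 (edgeR adjusted p = 1.66e-05), beside 0.04 with siRNA2 (adjusted p = 0.668). WASL, an Arp2/3 activator, and ARPC5 fell with siRNA2 at -0.67 and -0.54, beside 0.06 and -0.07 with siRNA1 (adjusted p = 0.566 and 0.362), and ARPC4 rose with both, at 0.37 with siRNA1 and 0.35 with siRNA2.

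Genes that bind monomers or cap filament ends fell more often than they rose, with 2 higher and 5 lower of 10 with siRNA1 (70% called, median -0.08) and 1 higher and 5 lower with siRNA2 (60% called, median -0.13). The twinfilins, which bind monomers and capped ends, were among them: TWF2 fell by 0.43 with siRNA1 and 0.44 with siRNA2, and TWF1 by 0.10 with siRNA1 (adjusted p = 0.0263) and 0.57 with siRNA2 (adjusted p = 2.56e-08). The siRNA1 call for TWF1 was lost without NC library 3 (adjusted p = 0.0758). COTL1, a coactosin-like actin binder, rose by 0.37 with siRNA1 and 0.24 with siRNA2. Bundling and membrane skeleton genes gave 1 higher and 6 lower of 12 with siRNA1 (58.3% called, median -0.11) and 3 higher and 7 lower with siRNA2 (83.3% called, median -0.20). The microvillus bundler PLS1 fell by 0.33 with siRNA1 and 0.56 with siRNA2, the spectrin gene SPTBN1 by 0.25 with siRNA1 and 0.30 with siRNA2, and LASP1, an actin-binding LIM protein, by 0.11 with siRNA1 (adjusted p = 0.0474) and 0.61 with siRNA2 (adjusted p = 8.33e-08). The siRNA1 call for LASP1 was kept in only 3 of the 9 fits that leave out a library (adjusted p up to 0.125). FSCN1, the fascin of filopodia, fell with siRNA1, at -0.18, and rose with siRNA2, at 0.17.

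Partners at focal adhesions, beyond the 4 genes above, gave 3 higher and 3 lower of 15 with siRNA1 (40% called, median 0.01) and 4 higher and 9 lower with siRNA2 (86.7% called, median -0.25). ITGB1, the common beta chain of many matrix receptors, had 37068, 38390 and 39277 normalized counts with siRNA1 and 64624, 62436 and 64605 with siRNA2, against 37725, 38366 and 37716 with NC. The siRNA2 libraries were far above the others, at 0.75 (SE 0.03, edgeR adjusted p = 1.53e-09), while siRNA1 gave 0.01 (adjusted p = 0.844). LIMS1, FERMT2 and TNS1, cytoplasmic partners of integrins, fell with siRNA2 by 0.66, 0.46 and 1.05. With siRNA1 FERMT2 also fell, at -0.14 (adjusted p = 0.0429), while LIMS1 was at -0.14 (adjusted p = 0.151) and TNS1 at 0.0047 (adjusted p = 0.984). The siRNA1 call for FERMT2 was kept in only 4 of the 9 fits that leave out a library (adjusted p up to 0.113). Other myosins gave 4 higher and 6 lower of 13 with siRNA1 (76.9% called, median -0.11) and 5 higher and 2 lower with siRNA2 (53.8% called, median 0.04), and the membrane-binding class I genes MYO1D and MYO1C rose with both, MYO1D by 0.86 with siRNA1 and 0.40 with siRNA2, MYO1C by 0.43 with siRNA1 and 0.32 with siRNA2.

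**Figure D4:**
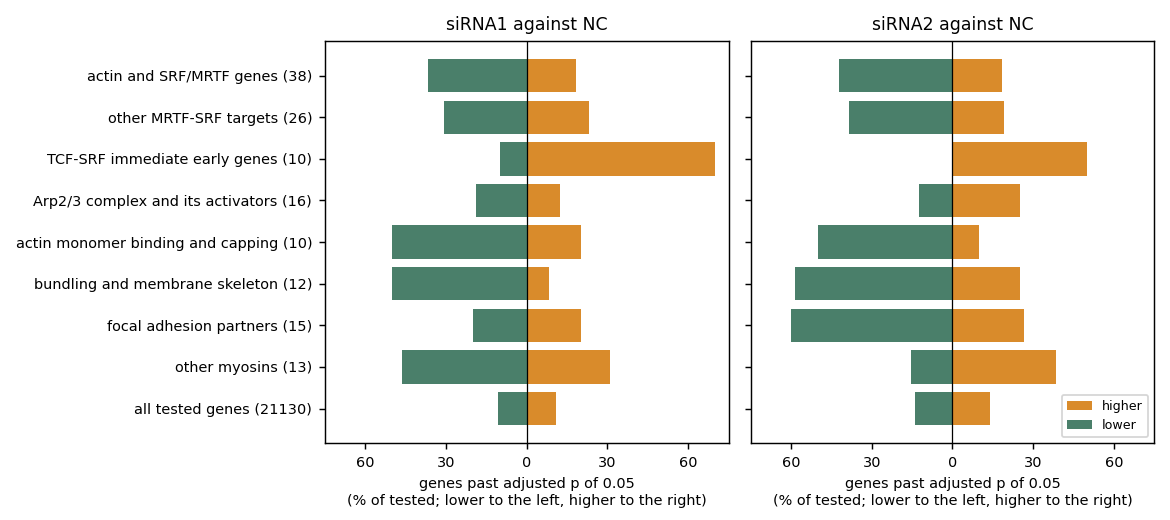
Percent of the tested genes of each list shown that passed adjusted p of 0.05, lower to the left and higher to the right of 0, for siRNA1 (left panel) and siRNA2 (right panel) against NC, with the number tested in brackets and all 21130 tested genes in the bottom row. Bars of the 38 genes reach farther to the left than to the right in both panels, whereas the immediate early genes reach farther to the right.

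Gene overlap and single libraries limit some of these values. Exons of 22 of the 38 genes overlap another gene of the table, most of all in TPM1 (16.1% of its exon length), ACTN4 (14.2%), CFL1 (12.9%) and PXN (12.3%), and 16 share their name with annotated pseudogenes, 76 in all, with the most for ACTG1, CNN2 and PFN1 (10). Leaving out each of the 9 libraries in turn kept 19 of the 21 siRNA1 calls, all but MRTFA and TAGLN2, and 20 of the 23 siRNA2 calls, all but ACTN1, EZR and TAGLN2. Between the siRNAs, 23 of 27 calls were kept in all of these fits, all but FLNA, MYL6, TLN1 and ZYX, which were lost without siRNA2 library 3, among others (adjusted p of 0.152, 0.0681, 0.0773 and 0.0976). Without the first siRNA1 library 26 of the 38 genes passed with siRNA1, 7 higher and 19 lower, and 31 differed between the siRNAs. Over all genes that fit called 4220 with siRNA1 and 5868 between the siRNAs, beside 4491 and 6216 with all 9 libraries.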

How the data were processed

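RNA of HCT116 cells was sequenced by Lianchuan Biotechnology in 3 libraries per group. The authors deposited raw counts per gene, whole numbers that are not normalized. The submitters' notes name hg19. Aligner, counter, gene annotation and strand were not given in the sources used here. Columns that matched no sample numbered 0. Exon lengths and overlaps came from GENCODE v29 (GRCh38), joined by Ensembl ID (34766 of 35817 genes found), and no position was carried between builds.

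Genes were filtered by filterByExpr (minimum count 10, minimum total 15) with TMM scaling. In edgeR 4.0.16 (R 4.3.3) a quasi-likelihood F test was run on 1 model of 3 groups and 9 libraries (6 residual degrees of freedom) with Benjamini-Hochberg adjustment over 21130 genes and a threshold of 0.05. The SE was taken as the log2 fold change, without sign, over root F. For 3 libraries against 3, an exact permutation test cannot go below a two-sided p of 0.1. Replicate libraries differed beyond sampling noise, so none was a copy. Same-numbered libraries did not deviate together more than other pairs, and no block entered the main model. The calls were tested on simulated data.

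The 38 genes and all lists were chosen with earlier results of these data known, so they are described by counts and medians and not tested as sets. Of the 38 genes, counts per library are given for those past the threshold with a log2 fold change of at least 0.3 in size, or past it in opposite directions. Some genes were singled out from other lists after their values were seen. Counts per library are given for CCN1, EGR1, ITGB1, CCN2, ACTA2 and ACTB, and ranges for SRF. The result of 1 further list is not reported here. From each list reported, up to 4 genes per siRNA are named by smallest adjusted p, with the value of the same gene under the other siRNA. Alternatives tried were DESeq2 1.42.0, limma-voom (limma 3.58.1), median-of-ratios and upper quartile scaling, no filter, a stricter filter, only the 2 groups compared, a replicate block, and each library left out.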

Additional observations from a re-analysis of the deposited data

Results flagged for a closer look

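In all, 3 of the 38 genes passed the test against NC in opposite directions with the siRNAs, and the direct test of the difference passed for each, on log2 values of siRNA1 over siRNA2 from edgeR's quasi-likelihood test. TAGLN2 differed by 0.58 (adjusted p = 0.000103), with all siRNA1 libraries above and all siRNA2 libraries below NC. Its calls against NC were less firm. The siRNA1 call was lost without any NC library (adjusted p from 0.0525 to 0.104) and with no filter on low counts (0.0675). The siRNA2 call was lost without siRNA2 library 3 (0.0610) or NC library 2 (0.0515). CNN2 differed by 0.49 (adjusted p = 1.58e-07), again with siRNA1 above and siRNA2 below NC in all libraries. ARPC2 differed by -0.43 (adjusted p = 2.50e-06), with siRNA1 below and siRNA2 above NC in all libraries. Both siRNAs are aimed at LINC00857, whose level did not pass a direct test between them (log2 difference 0.08, SE 0.17, adjusted p = 0.783). The cause of the opposite directions was not tested.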

How the results depend on the processing

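Counts of calls among the 38 genes stayed within 1.5 times those reported under every alternative. Leaving out 1 library at a time gave 19 to 26 with siRNA1, 20 to 24 with siRNA2 and 23 to 31 between the siRNAs. All called genes kept their direction. Over all genes the same fits called 3475 to 4305 with siRNA1, 4884 to 6034 with siRNA2 and 5320 to 6038 between the siRNAs. Among the 38 genes DESeq2 gave 25, 24 and 26 in that order and limma-voom 24, 24 and 28. Over all genes DESeq2 called 5039, 6339 and 6703 and limma-voom 4748, 5889 and 6363, beside 4491, 5853 and 6216 in the main fit. With no filter the counts among the 38 genes were 19, 23 and 23, beside 3646, 4993 and 5342 over all genes. The 8 settings other than leaving out a library kept 19 of 21 siRNA1 calls, all 23 siRNA2 calls and 23 of 27 direct calls. LINC00857 stayed called, between -1.28 and -1.14 for siRNA1 and between -1.43 and -1.19 for siRNA2. Libraries of the same number did not deviate together more than others (correlations of -0.0912 to 0.0626, beside -0.140 to 0.133 for different numbers). Deviations from means of 3 libraries cannot show whether a shared number marks a shared culture or batch. With a replicate block the counts among the 38 genes were 23 (8 higher and 15 lower), 23 and 27, beside 4481, 5800 and 6229 over all genes. Limits are the unknown strand and read counting, the first siRNA1 library, and 3 libraries per group that may not be separate cultures. With 51411860 counts or more per library, the least precise of the 38 genes was TAGLN (SE 0.19).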

Other observations

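ACTB, a gene often used to normalize qPCR, was not steady here. It had 143892, 144469 and 144418 normalized counts with siRNA1 and 114634, 114336 and 114701 with siRNA2, against 105492, 103245 and 106133 with NC, so that the 3 groups did not overlap. CCN2, like CCN1 a secreted matrix protein, went in opposite directions with the siRNAs, with 779, 972 and 1000 normalized counts for siRNA1 and 305, 358 and 259.6 for siRNA2, against 553, 489 and 439.9 for NC. The log2 fold changes were 0.89 for siRNA1 (SE 0.15, edgeR adjusted p = 0.00079) and -0.69 for siRNA2 (SE 0.15, adjusted p = 0.00407). ACTA2, smooth muscle actin and a usual MRTF readout, rose with both siRNAs at low counts, with 324, 355 and 345 for siRNA1 and 397, 361 and 529 for siRNA2, against 175, 232 and 202 for NC (0.75 with siRNA1 and 1.08 with siRNA2 on the log2 scale, edgeR adjusted p = 0.00847 and 0.000488). These genes were picked after their values were seen.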
